A study of Mus musculus with 18 samples.

Results

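Interferon-stimulated genes are the set of genes that a cell switches on when interferon reaches its surface. Type I interferons act through the receptor chains *Ifnar1* and *Ifnar2* and bring a complex that holds *Stat2* and *Irf9* onto the interferon-stimulated response element (ISRE), while interferon gamma acts through *Ifngr1* and *Ifngr2* and turns on genes that carry the gamma-activated site (GAS). Macrophages express many of these genes, and adipocytes and endothelial cells can induce them as well, so in whole adipose tissue the level of an interferon-stimulated gene mixes the output of several cell types. The 36 genes described here were chosen by symbol as common members of this response, and all 36 were matched among the 55487 genes of the count tables. They were sorted by role into the IFIT family (4 genes), the OAS family (5 genes), the Mx GTPases (2 genes), the GBP and IRG GTPases (6 genes), RNA sensors (3 genes), transcription factors (4 genes), genes of ubiquitin-like modification and ADP-ribosylation (5 genes) and other effectors (7 genes).

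RNA was sequenced from subcutaneous white adipose tissue (sWAT) of mice aged 12 weeks, 4 Ctrl and 4 Csn8AKO, and from brown adipose tissue (BAT) of mice aged 4 weeks, 5 Ctrl and 5 Csn8AKO. Csn8AKO mice carry 2 floxed alleles of *Csn8* (listed as *Cops8*), a subunit of the COP9 signalosome that removes NEDD8 from cullin ubiquitin ligases, together with Cre driven by the adiponectin promoter, which deletes exons 4 to 6 in adipocytes and leaves other cells of the tissue with the gene. Ctrl mice were *Csn8* f/f littermates without Cre, labelled WT in the series. All mice were male, ate chow and were fasted for 4 h, and each library came from 1 mouse. Tissue and age differ together between the sWAT and BAT libraries and cannot be told apart.

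Between 15835721 and 23109603 reads were counted per sWAT library and between 26658593 and 66719937 per BAT library. *Cops8*, counted over all of its exons in all cells of the tissue, was at 33.9 to 36.2 CPM (reads of the gene scaled to the total of the library) in Ctrl and 29.2 to 36.1 in Csn8AKO sWAT, and at 36.5 to 44.6 in Ctrl and 28.2 to 36.9 in Csn8AKO BAT. *Ucp1*, which defines brown adipocytes, was at 1568 to 5243 CPM in BAT and 0 to 6.89 CPM in sWAT, and *Adipoq* was at 491 CPM or more in all 18 libraries. The summed CPM of adipocyte markers was 19640 to 25180 in Ctrl and 6435 to 15050 in Csn8AKO sWAT. Ctrl replicate 1 and Csn8AKO replicate 2 of sWAT stood apart in B and T cell and lymph node markers. Csn8AKO replicates 3 and 4 of sWAT had 31.8% and 47.8% of their reads on ribosomal RNA genes. Csn8AKO replicate 2 of BAT had 15.1%, beside 1.06% to 4.10% in the other Csn8AKO and 0.863% to 10.1% in the Ctrl BAT libraries. Csn8AKO replicates 1 and 5 of BAT stood apart in skeletal muscle markers (summed CPM 47.4 and 85.5, beside 1.62 to 2.61 in the other BAT libraries). These markers were also uneven in sWAT, at 2853 in Ctrl replicate 3, 1714 in Csn8AKO replicate 4 and 47.1 to 546 in the others. No fit left out those 2 sWAT libraries together.

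The sequences that the interferon factors bind are shown first, because the genes that carry them moved in different directions below. RefSeq promoter windows of 300 bases (250 before to 50 after the transcript start, GRCm38.p6) were available for 27 of the 36 members. The ISRE core, TTTC followed after any 2 bases by TTTC, read on either strand, was present in 16 of these 27 genes (59.3%) and in 3.99% of the 27025 genes with a window. The GAS core, TTCNNNGAA, which reads the same on both strands, was present in 7 of the 27 (25.9%) and in 9.55% of all genes with a window. These matches describe letters in a fixed window and do not show that a factor was bound there. Of the 32 windows of the members, 21 had the bases after the start in a transcript of the gene.

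Stretches around the ISRE core are given 5′ to 3′ on the strand of the gene, with every base that belongs to a core in capitals and overlapping cores run together. The first 3 genes were higher in Csn8AKO BAT, the next 2 were lower in Csn8AKO BAT, *Isg15* passed in neither tissue, and *Ifit3* and *Ifit3b* had the most negative log2 fold changes of the members in sWAT. They lie at chr5:120907510-120907565 (*Oas1a*, minus strand), chr5:120777705-120777754 (*Oas3*, minus), chr8:71537567-71537622 (*Bst2*, minus), chr3:142559979-142560034 (*Gbp3*, plus), chr11:58199502-58199551 (*Igtp*, plus), chr4:156200855-156200916 (*Isg15*, minus), chr19:34583353-34583436 (*Ifit3*, plus) and chr19:34607749-34607832 (*Ifit3b*, plus).
Oas1a: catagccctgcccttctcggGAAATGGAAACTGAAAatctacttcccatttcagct
Oas3: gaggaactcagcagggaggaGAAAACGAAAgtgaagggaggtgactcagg
Bst2: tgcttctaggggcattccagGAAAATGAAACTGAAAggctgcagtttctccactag
Gbp3: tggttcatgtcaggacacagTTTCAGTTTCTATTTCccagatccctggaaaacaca
Igtp: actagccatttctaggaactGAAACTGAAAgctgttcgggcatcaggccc
Isg15: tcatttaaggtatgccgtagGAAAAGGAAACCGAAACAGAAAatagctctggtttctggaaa
Ifit3: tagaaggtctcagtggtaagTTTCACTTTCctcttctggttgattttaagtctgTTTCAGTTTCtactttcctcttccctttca
Ifit3b: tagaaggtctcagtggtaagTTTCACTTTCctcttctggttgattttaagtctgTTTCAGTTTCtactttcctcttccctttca

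The core stood on both sides of the comparison. In *Oas1a*, *Oas3* and *Bst2* it was read on the reverse strand, in *Gbp3* on the forward strand and in *Igtp* on the reverse strand. *Ifit3* and *Ifit3b* had the same 84 bases, with both cores at the same spacing. Among the called members, *Oasl1*, *Oasl2*, *Ifi47* and *Dtx3l* had windows without an ISRE core, and *Oas2*, *Mx1*, *Ifi27* and *Parp9* had no window in the table.

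The comparison of Csn8AKO with Ctrl in each tissue asks whether interferon output was altered where *Csn8* was lost from adipocytes. Counts were tested with the quasi-likelihood test of edgeR, and a gene was called when its Benjamini-Hochberg adjusted p, over all genes tested in that tissue, was under 0.05. Levels are CPM after TMM scaling, a log2 fold change is Csn8AKO over Ctrl and is given ± its SE, and mean levels are given ± SD. All 36 members passed the filter on low counts in both tissues.

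In sWAT the members as a set stayed near Ctrl. *Oasl1* rose, no member was called lower, and the share called, 1 of 36, stood beside 5.31% of the 18843 genes tested (2.30% called higher and 3.00% called lower). The median log2 fold change of the members was 0.15, beside 0.03 over all genes, and 24 of 36 were positive, beside 53.3% of all genes. At an unadjusted p under 0.05 there were 9 members, 6 positive and 3 negative, beside 20.4% of all genes. The call count was not stable: it was 0 with libraries scaled by total alone, 0 to 3 when 1 library was left out, 4 with DESeq2 (*Oas1a* and *Oasl1* higher, *Ifit3* and *Ifit3b* lower) and 5 with voom.

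In BAT members moved in opposite directions. *Oas3*, *Oas1a*, *Mx1*, *Oas2*, *Bst2*, *Ifi47* and *Oasl2* rose, and *Gbp3*, *Ifi27*, *Dtx3l*, *Parp9*, *Ddx58*, *Igtp* and *Gbp2* fell. These 14 of 36 members (38.9%) stood beside 31.9% of the 22345 genes tested, with 7 higher beside 16.0% and 7 lower beside 15.8%, so the share called was near that of all genes. The median over the 36 members was -0.02, beside 0.01 over all genes, and 17 were positive, beside 50.5%. At an unadjusted p under 0.05 there were 17 members, beside 41.7% of all genes. Scaling by library total alone moved the median of all genes in BAT to 0.14 and left 7 members higher and 2 lower (*Gbp3* and *Ifi27*). Markers of other cells also moved with genotype in BAT. Of 7 fibroblast and progenitor markers all 7 rose (summed CPM 1017 to 1752 in Ctrl and 2702 to 4648 in Csn8AKO), as did 4 of 5 monocyte, 4 of 6 conventional dendritic cell, 4 of 9 NK cell and 4 of 12 T cell markers tested (summed CPM of T cell markers 5.84 to 8.37 and 12.1 to 19.6). Another NK cell marker fell, and the summed CPM of NK cell markers overlapped (6.31 to 9.67 in Ctrl and 6.23 to 10.9 in Csn8AKO). Of 9 B cell markers tested 0 rose and 1 fell. Of 8 endothelial markers 3 rose and 0 fell, with overlapping sums (903 to 1188 in Ctrl and 960 to 1323 in Csn8AKO). Of 12 adipocyte markers 2 rose and 2 fell. In sWAT 1 of 7 fibroblast and progenitor markers rose, with sums of 9471 to 10540 in Ctrl and 10020 to 16850 in Csn8AKO. There 4 of 12 adipocyte markers fell and 0 rose, and 1 of 6 monocyte markers rose. The part of these cells in the members' values was not tested. With B and T cell marker level as a covariate 5 members were called in BAT, but that level overlapped only in part between genotypes (mean log2 CPM -1.28 to -0.49 in Ctrl and -0.69 to 0.02 in Csn8AKO), so the fit separates it from genotype only weakly.

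**Figure D1:**
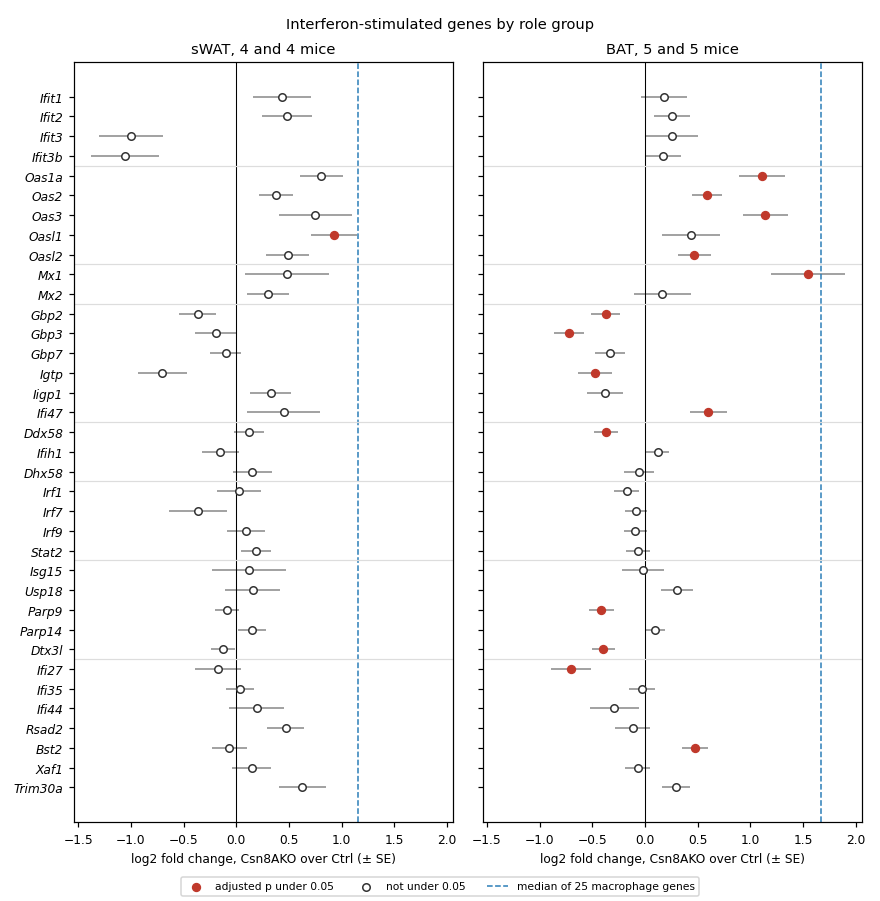
Log2 fold change of Csn8AKO over Ctrl for each of the 36 members, with SE, in sWAT (left, 4 and 4 mice) and BAT (right, 5 and 5 mice). Filled points have an adjusted p under 0.05 (1 in sWAT, 14 in BAT), grey lines part the role groups, and no point reaches the dashed line at the median of the 25 macrophage genes, 1.16 in sWAT and 1.66 in BAT.

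The OAS family holds enzymes that sense double-stranded RNA and make 2′-5′-linked oligoadenylates to activate RNase L, and the OAS-like genes *Oasl1* and *Oasl2*. It was the one role group of more than 2 genes with every member positive in both tissues. Its median log2 fold change was 0.75 in sWAT, where 1 of 5 was called, and 0.59 in BAT, where 4 of 5 were called, beside 5.31% and 31.9% of all genes. The 5 genes lie on chromosome 5. Their direction was the same under all 3 scalings of the libraries.

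*Oas3*, the family member with 3 OAS units, was at 0.414, 0.644, 0.597, 0.683 and 0.505 CPM in Ctrl BAT and at 1.18, 1.02, 1.51, 1.25 and 1.37 CPM in Csn8AKO BAT. Every Csn8AKO library was above every Ctrl library. The log2 fold change was 1.14 ± 0.21 (SE, adjusted p = 0.000953 by edgeR). In sWAT *Oas3* was at 2.68 to 6.61 CPM in Ctrl and 3.67 to 9.38 CPM in Csn8AKO, the groups overlapped, and the log2 fold change was 0.75 ± 0.35 (adjusted p = 0.262).

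*Oas1a*, an active 2′-5′ oligoadenylate synthetase, was at 1.11, 1.46, 0.823, 1.27 and 0.811 CPM in Ctrl BAT and at 2.80, 1.70, 2.27, 2.89 and 2.04 CPM in Csn8AKO BAT. The groups did not overlap, and the log2 fold change was 1.11 ± 0.22 (adjusted p = 0.00155). In sWAT it was at 8.01, 5.72, 6.51 and 8.78 CPM in Ctrl and at 12.4, 11.3, 16.6 and 10.6 CPM in Csn8AKO. These groups did not overlap either, and the log2 fold change was 0.81 ± 0.21, but its adjusted p of 0.0518 lay on the other side of the threshold. Of the 75-base stretches of *Oas1a* transcripts, 47.6% also occur in *Oas1g*, so reads of these paralogs can be lost or misplaced where only unique reads are counted.

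*Oas2* was at 3.13, 3.98, 3.40, 4.50 and 3.14 CPM in Ctrl BAT and at 4.99, 5.68, 4.81, 5.83 and 6.02 CPM in Csn8AKO BAT. The lowest Csn8AKO library was above the highest Ctrl library, and the log2 fold change was 0.59 ± 0.14 (adjusted p = 0.00636). *Oasl2*, an OAS-like gene with ubiquitin-like domains that ranked past the 6 genes given in full, rose by 0.47 ± 0.16 in BAT (adjusted p = 0.0361), a call lost when Ctrl replicate 3, 4 or 5 or Csn8AKO replicate 3, 4 or 5 was left out.

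*Oasl1*, which is known to restrain the translation of *Irf7*, was at 6.47, 4.20, 5.98 and 5.66 CPM in Ctrl sWAT and at 9.45, 11.2, 13.6 and 8.30 CPM in Csn8AKO sWAT. Every Csn8AKO library was above every Ctrl library, and the log2 fold change was 0.93 ± 0.22 (adjusted p = 0.0362). The call did not hold in 5 of the 8 fits that left out 1 library (Ctrl replicate 2, 3 or 4, or Csn8AKO replicate 1 or 3), with an adjusted p of up to 0.118 without Csn8AKO replicate 3, and it did not hold without the pair of libraries rich in ribosomal RNA (0.119). In BAT *Oasl1* was at 1.28 to 2.24 CPM in Ctrl and 0.867 to 3.16 CPM in Csn8AKO, and its log2 fold change was 0.44 ± 0.28 (adjusted p = 0.258).

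The Mx GTPases are dynamin-like proteins that block viruses. *Mx1* was at 0.362, 0.864, 0.258, 0.240 and 0.361 CPM in Ctrl BAT and at 1.35, 0.710, 1.10, 1.59 and 1.30 CPM in Csn8AKO BAT. Ctrl replicate 2 was above Csn8AKO replicate 2, the other libraries of the groups were apart, and the log2 fold change, 1.55 ± 0.35 (adjusted p = 0.00382), was the highest of the 36 members. The largest rises in BAT were in members of low level. *Mx1* had 13 to 116 reads per BAT library and *Oas3* 16 to 91. Per kilobase of exon *Oas1a*, *Mx1* and *Oas3* ranked 33, 35 and 36 of the 36 members in Ctrl BAT. In sWAT *Mx1* was at 2.43 to 9.82 CPM in Ctrl and 5.08 to 10.6 CPM in Csn8AKO, and its log2 fold change was 0.48 ± 0.40 (adjusted p = 0.564). *Mx2*, annotated as a polymorphic pseudogene, had a log2 fold change of 0.30 ± 0.20 in sWAT and 0.16 ± 0.27 in BAT and was called in neither.

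The GBP and IRG GTPases are the gene group most closely tied to interferon gamma, and their proteins coat the vacuoles of intracellular parasites and bacteria. In BAT 5 of the 6 were negative, 3 fell and 1 rose, with a median log2 fold change of -0.38, beside 15.8% of all genes called lower and 16.0% called higher. In sWAT 4 of 6 were negative, none was called, and the median was -0.14. The signs of both medians were the same under all 3 scalings, but with library size alone 1 of the 3 lower calls in BAT was left.

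*Gbp3* was at 22.4, 20.8, 22.1, 24.1 and 13.3 CPM in Ctrl BAT and at 13.2, 10.6, 11.5, 13.1 and 13.8 CPM in Csn8AKO BAT. Ctrl replicate 5 lay within the Csn8AKO range and the other Ctrl libraries above it, and the log2 fold change was -0.72 ± 0.14 (adjusted p = 0.00157). In sWAT the value for *Gbp3* was -0.19 ± 0.20 (adjusted p = 0.658).

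*Igtp*, the immunity-related GTPase Irgm3, was at 11.6, 11.9, 9.00, 9.04 and 8.38 CPM in Ctrl BAT and at 8.01, 4.53, 7.87, 7.43 and 8.02 CPM in Csn8AKO BAT. The groups did not overlap, but the gap was narrow, and the log2 fold change was -0.47 ± 0.16 (adjusted p = 0.0396). The call was lost in 6 of the 10 fits that left out 1 library (Ctrl replicate 1, 2 or 4, or Csn8AKO replicate 3, 4 or 5), with an adjusted p of up to 0.101 without Ctrl replicate 2. In sWAT the log2 fold change was -0.70 ± 0.23 (adjusted p = 0.117). *Irgm2* overlaps 162 exon bases of *Igtp* on the same strand, where reads cannot be assigned to either gene with certainty.

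*Ifi47*, an IRG-family GTPase, went the other way within the group. It was at 1.63, 1.83, 1.19, 1.27 and 1.62 CPM in Ctrl BAT and at 2.40, 1.89, 2.13, 2.64 and 2.31 CPM in Csn8AKO BAT, without overlap, and the log2 fold change was 0.60 ± 0.17 (adjusted p = 0.0175). Leaving out Ctrl replicate 3 or Csn8AKO replicate 4 took its adjusted p to 0.05 and 0.0546. *Olfr56* on the same strand and *Gm12188* on the opposite strand overlap 217 exon bases of *Ifi47*, with the same uncertainty. *Gbp2*, which ranked past the 6 genes given in full, fell by 0.37 on the log2 scale (SE 0.13, adjusted p = 0.0462) in BAT, a call lost without Ctrl replicate 1, 2 or 4 or Csn8AKO replicate 2, 3, 4 or 5. *Gbp7* at -0.33 ± 0.14 and *Iigp1* at -0.38 ± 0.17 did not pass.

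The RNA sensors detect viral RNA in the cytosol and signal through *Mavs*. *Ddx58*, which encodes RIG-I, was at 38.9, 40.4, 28.9, 28.8 and 32.0 CPM in Ctrl BAT and at 28.9, 22.6, 25.8, 27.5 and 25.8 CPM in Csn8AKO BAT. The groups met at about 28.9 CPM, and the log2 fold change was -0.37 ± 0.11 (adjusted p = 0.020). Without Ctrl replicate 1 or Ctrl replicate 2 the adjusted p was 0.05003 and 0.0571. *Ifih1*, which encodes MDA5, had a log2 fold change of 0.12 ± 0.11, and *Dhx58*, which encodes LGP2, -0.06 ± 0.14. In sWAT the 3 sensors ranged from -0.15 to 0.15, and none was called.

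The 4 transcription factors of the response did not pass in either tissue, with 0 at an unadjusted p under 0.05. *Stat2*, the type I interferon STAT, was at 59.1, 39.0, 57.6 and 49.9 CPM in Ctrl sWAT and at 58.9, 57.0, 62.5 and 55.8 CPM in Csn8AKO sWAT (log2 fold change 0.19 ± 0.14, adjusted p = 0.530). In BAT it was at 35.6, 39.8, 33.9, 38.5 and 38.4 CPM in Ctrl and at 36.2, 24.7, 41.5, 36.9 and 38.4 CPM in Csn8AKO (log2 fold change -0.07 ± 0.12, adjusted p = 0.706). Both pairs of groups overlapped.

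*Irf7*, the factor that amplifies type I interferon production, was at 37.1, 43.6, 42.3 and 52.1 CPM in Ctrl sWAT and at 35.9, 22.8, 55.4 and 22.1 CPM in Csn8AKO sWAT (log2 fold change -0.36 ± 0.28, adjusted p = 0.530). In BAT it was at 12.5, 15.9, 12.1, 16.0 and 12.7 CPM in Ctrl and at 13.5, 12.4, 12.6, 14.1 and 12.7 CPM in Csn8AKO (log2 fold change -0.08 ± 0.11, adjusted p = 0.594). The Csn8AKO sWAT libraries spread on both sides of the Ctrl range, whereas the BAT groups lay on top of each other.

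*Irf1*, the primary factor of the interferon gamma response, was at 64.0, 43.5, 39.3 and 48.8 CPM in Ctrl sWAT and at 47.8, 67.8, 45.4 and 38.0 CPM in Csn8AKO sWAT (log2 fold change 0.02 ± 0.20, adjusted p = 0.962). The highest library of each group was the one with high lymph node markers. This also held in sWAT for *Mx1*, *Ifi47*, *Igtp*, *Irf9*, *Ddx58* and *Usp18*, among the members. In BAT *Irf1* was at 36.4, 29.3, 33.3, 34.5 and 24.1 CPM in Ctrl and at 30.1, 26.4, 22.9, 29.96 and 30.2 CPM in Csn8AKO (log2 fold change -0.17 ± 0.12, adjusted p = 0.278). *Gm17334* overlaps 796 of the exon bases of *Irf1* on the opposite strand, so its counts carry the same uncertainty as those of other genes with an antisense overlap. *Irf9* had log2 fold changes of 0.09 ± 0.18 in sWAT and -0.09 ± 0.11 in BAT.

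*Isg15*, the ubiquitin-like protein that is joined to other proteins in the response, was at 5.02, 3.44, 4.97 and 4.21 CPM in Ctrl sWAT and at 6.34, 3.26, 7.24 and 2.32 CPM in Csn8AKO sWAT (log2 fold change 0.12 ± 0.35, adjusted p = 0.893). In BAT it was at 2.09, 3.57, 2.40, 2.20 and 1.95 CPM in Ctrl and at 2.18, 1.81, 2.65, 2.64 and 2.77 CPM in Csn8AKO (log2 fold change -0.02 ± 0.20, adjusted p = 0.953). The groups overlapped in both tissues. *Usp18*, the protease that removes Isg15 and damps the type I receptor, had log2 fold changes of 0.15 ± 0.26 in sWAT and 0.30 ± 0.15 in BAT and was not called.

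*Parp9* and *Dtx3l* encode an ADP-ribosyltransferase and its partner ubiquitin ligase. *Parp9* was at 27.2, 26.5, 21.9, 20.7 and 19.3 CPM in Ctrl BAT and at 20.3, 16.0, 14.7, 18.1 and 17.4 CPM in Csn8AKO BAT, a log2 fold change equal to -0.42 ± 0.12 (adjusted p = 0.0153). *Dtx3l* was at 26.4, 22.6, 21.1, 19.8 and 17.6 CPM in Ctrl BAT and at 18.8, 15.1, 16.0, 16.2 and 15.6 CPM in Csn8AKO BAT, a log2 fold change equal to -0.39 ± 0.11 (adjusted p = 0.0143). In each gene only the highest Csn8AKO library reached into the Ctrl range. The genes share 458 exon bases on opposite strands of chromosome 16, and, since the strand setting of the counting is not given in the sources used here, reads from that overlap cannot be assigned to either gene with certainty. *Parp14*, a mono-ADP-ribosyltransferase, had a log2 fold change of 0.09 ± 0.10 in BAT.

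Among the other effectors *Bst2*, which encodes tetherin and holds budding virus at the cell surface, was at 13.5, 15.9, 14.8, 13.7 and 12.2 CPM in Ctrl BAT and at 21.1, 16.7, 15.5, 23.7 and 20.4 CPM in Csn8AKO BAT. Csn8AKO replicate 3 fell just inside the Ctrl range, and the log2 fold change was 0.48 ± 0.12 (adjusted p = 0.00853). Without the pair of BAT libraries high in muscle markers the adjusted p was 0.0612 for *Bst2* and 0.0742 for *Ifi47*, at log2 fold changes of 0.41 and 0.57.

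*Ifi27*, a small mitochondrial and nuclear-envelope protein, was by far the most abundant member in BAT, at 56.9% of the summed CPM of the members in Ctrl and 46.5% in Csn8AKO. Per kilobase of exon it stood at 422 CPM in Ctrl BAT, with *Bst2* next at 15.6 CPM per kilobase. It was at 552, 534, 726, 726 and 559 CPM in Ctrl BAT and at 365, 612, 299, 297 and 332 CPM in Csn8AKO BAT. Csn8AKO replicate 2 stood within the Ctrl range and the other Csn8AKO libraries below it. The log2 fold change was -0.70 ± 0.19 (adjusted p = 0.0140), and without the muscle-marker libraries it was -0.62 (adjusted p = 0.0914); without a filter on low counts its adjusted p was 0.0551. The calls of *Oas3*, *Oas1a*, *Mx1*, *Oas2*, *Bst2*, *Gbp3*, *Ifi27*, *Dtx3l* and *Parp9* held in each of the 10 fits that left out 1 BAT library. In sWAT it was -0.17 ± 0.22 (adjusted p = 0.716). The remaining members of the group, *Ifi35*, *Ifi44*, *Rsad2*, *Xaf1* and *Trim30a*, were called in neither tissue.

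**Figure D2:**
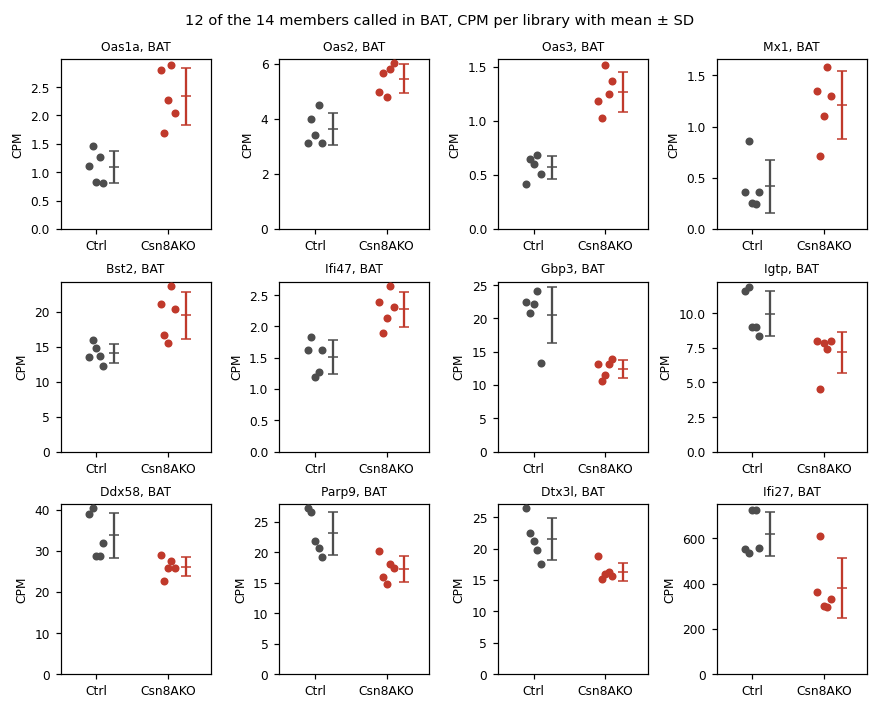
CPM per library in BAT for the 12 called members with the smallest adjusted p, 6 per direction (points, 5 Ctrl and 5 Csn8AKO mice), with the mean ± SD beside each group; every axis starts at 0. *Oas1a*, *Oas2*, *Oas3* and *Ifi47* have Csn8AKO libraries all above Ctrl and *Igtp* all below, and in the other 7 genes at least 1 library of one group lies within the range of the other.

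Counted without any test, *Oas1a*, *Oasl1* and *Rsad2* had all Csn8AKO sWAT libraries above Ctrl (3 of 36, beside 5.80% of all genes) and *Ifit3* and *Ifit3b* had all of them below (2 of 36, beside 8.23%). In BAT 4 of 36 members were above without overlap, beside 10.1% of all genes, and 1 was below, beside 10.9%.

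The IFIT family, whose proteins bind foreign RNA ends, divided within sWAT. *Ifit1* and *Ifit2* had log2 fold changes of 0.43 ± 0.27 and 0.48 ± 0.24, and *Ifit3* and *Ifit3b* of -0.998 ± 0.30 and -1.06 ± 0.32, none of them called. *Ifit3* and *Ifit3b* fall outside the rule for genes given per library and were chosen after their values were seen. *Ifit3* was at 16.8, 31.9, 19.5 and 25.7 CPM in Ctrl sWAT and at 14.9, 5.75, 13.4 and 13.0 CPM in Csn8AKO sWAT (adjusted p = 0.0930). *Ifit3b* was at 10.7, 13.1, 7.46 and 8.88 CPM in Ctrl and at 5.65, 2.22, 4.96 and 6.51 CPM in Csn8AKO (adjusted p = 0.0906). In both genes every Csn8AKO library lay below every Ctrl library. The lowest was Csn8AKO replicate 2, which was high in lymph node markers. DESeq2 called both of them lower, with adjusted p of 0.0258 for *Ifit3* and 0.0223 for *Ifit3b*, and voom called *Ifit3* alone of the pair (0.0383).

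These genes are near-identical neighbours on chromosome 19, at 34583531 to 34588731 and 34607970 to 34613401 of GRCm38, and 41.1% of the 75-base stretches of *Ifit3* and 35.7% of those of *Ifit3b* occur in the other. Only unique reads were counted, so reads from the shared stretches can be lost or misplaced, and the counts of both genes are uncertain. In BAT the IFIT genes were all positive, from 0.17 to 0.25, and none was called. The difference between tissues, BAT minus sWAT, was 1.23 ± 0.43 for *Ifit3* (adjusted p = 0.154) and 1.21 ± 0.36 for *Ifit3b* (adjusted p = 0.0884). It did not pass for either gene with edgeR, and DESeq2 called it for *Ifit3b* (adjusted p = 0.0217).

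**Figure D3:**
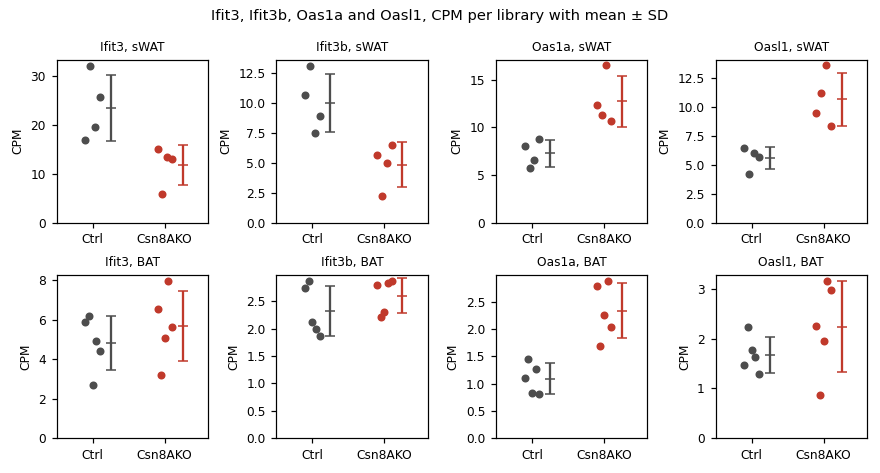
CPM per library of *Ifit3*, *Ifit3b*, *Oas1a* and *Oasl1* in sWAT (top, 4 and 4 mice) and BAT (bottom, 5 and 5 mice), with the mean ± SD beside each group; every axis starts at 0. In sWAT the Csn8AKO libraries of *Ifit3* and *Ifit3b* lie below all Ctrl libraries and those of *Oas1a* and *Oasl1* above, and in BAT only *Oas1a* is without overlap.

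Over all members, 13 were positive in both tissues, 8 negative in both, 11 positive in sWAT and negative in BAT, and 4 the reverse. With the main settings no member was called in both tissues, 15 were called in one of them and 21 in neither. *Oas1a* was called higher in both tissues with DESeq2, voom and all 4 groups in one fit. It was so too with a filter at 1 CPM, protein-coding genes only and without ribosomal RNA genes. *Igtp* was called lower in both with voom and with the B and T cell covariate. The interaction, which tests whether the effect of genotype differed between sWAT at 12 weeks and BAT at 4 weeks, was called by edgeR for 0 of 36 members, beside 2.36% of the 22509 genes tested (1.61% with the larger value in BAT and 0.755% with the smaller). Before any test, 12 of 36 members had the larger value in BAT, beside 49.6% of all genes, and 22 of 36 did with library size alone, a scaling that moved the median of all genes in this comparison to 0.21. At an unadjusted p under 0.05 it had 7 members, 3 with the larger value in BAT and 4 with the smaller, beside 15.3% of all genes. DESeq2 and voom each called 1 member, *Ifit3b*. Calls in BAT that are missing in sWAT are thus not shown to be particular to BAT.

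Whether the members moved with the macrophage genes was read from the same libraries with 25 macrophage genes. In whole tissue more cells of a type and more RNA per cell cannot be told apart. Of the macrophage genes 16 rose and 0 fell in sWAT (median 1.16 on the log2 scale), and 22 rose and 0 fell in BAT (median 1.66), and none was negative at an unadjusted p under 0.05 in either tissue. *Adgre1*, which encodes F4/80, went from 35.4 ± 3.34 to 87.8 ± 12.9 CPM in sWAT (SD, n = 4; edgeR adjusted p = 0.0018) and from 5.86 ± 1.35 to 18.1 ± 2.02 CPM in BAT (SD, n = 5; edgeR adjusted p = 6.29e-06). *Cd68*, a lysosomal protein of macrophages, had log2 fold changes of 1.33 ± 0.23 in sWAT (adjusted p = 0.0127) and 2.53 ± 0.12 in BAT (adjusted p = 1.12e-08). *Csf1r*, the receptor for macrophage colony-stimulating factor, rose in BAT (1.07 ± 0.11, adjusted p = 8.80e-06) and had a value of 0.61 ± 0.22 in sWAT that did not pass (adjusted p = 0.147).

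The interferon-stimulated genes did not follow in size. No member reached the macrophage median in either tissue, 15 of the 25 macrophage genes were above the highest member in sWAT and 14 of 25 in BAT. Within a library, the median over members of log2 of the level relative to the Ctrl mean ranged from -0.16 to 0.16 in Ctrl and from -0.10 to 0.22 in Csn8AKO sWAT, and from -0.18 to 0.18 in Ctrl and from -0.27 to 0.15 in Csn8AKO BAT. The same measure over macrophage genes was -0.14 to 0.16 in Ctrl and 0.74 to 1.29 in Csn8AKO sWAT, and -0.28 to 0.19 in Ctrl and 1.28 to 1.89 in Csn8AKO BAT. The genotypes overlapped for the members in both tissues and did not overlap for the macrophage genes. Within Csn8AKO sWAT both measures put the libraries in the same order. Replicates 1, 3, 2 and 4 were at 0.22, 0.19, -0.04 and -0.10 for the members and at 1.29, 1.25, 0.88 and 0.74 for the macrophage genes. In Csn8AKO BAT replicate 2, the library of the group with the most ribosomal RNA, was lowest in both (-0.27 and 1.28). The order of the other libraries differed. It also differed in both Ctrl groups, and the relation was not tested.

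The summed CPM of the 35 members other than *Ifi27*, which would dominate the sum, was 831 to 1003 in Ctrl and 815 to 1038 in Csn8AKO sWAT, and 410 to 518 in Ctrl and 358 to 481 in Csn8AKO BAT. The summed CPM of the macrophage genes was 1597 to 2083 in Ctrl and 2876 to 4497 in Csn8AKO sWAT, and 171 to 234 in Ctrl and 621 to 912 in Csn8AKO BAT. The ratio of the former to the latter was therefore 0.439 to 0.620 in Ctrl and 0.229 to 0.313 in Csn8AKO sWAT, and 2.09 to 2.61 in Ctrl and 0.505 to 0.668 in Csn8AKO BAT. Members of low level weigh little in this sum and ratio. In Ctrl BAT the mean was 49.8 CPM for *Parp14*, and 1.1, 0.568 and 0.417 CPM for *Oas1a*, *Oas3* and *Mx1*, which rose. Because the macrophage level does not overlap between genotypes, a fit that holds it constant cannot separate it from genotype: it called 0 of all genes tested in either tissue.

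**Figure D4:**
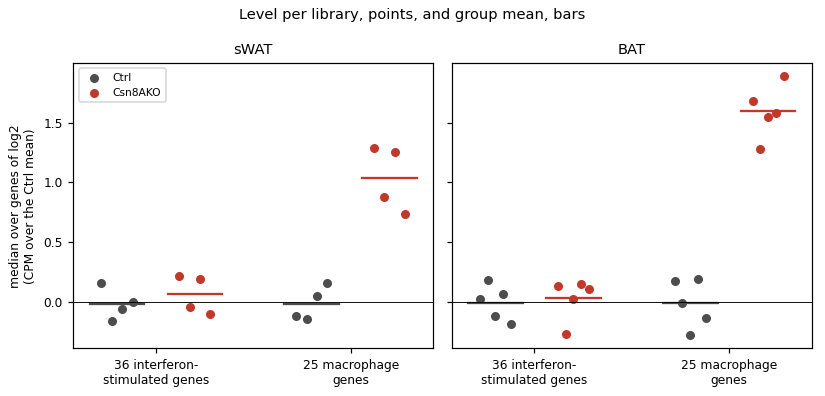
Each point is 1 library and gives the median over genes of log2 of the CPM relative to the Ctrl mean, for the 36 members and for 25 macrophage genes in sWAT (left) and BAT (right); bars are group means. The member medians lie between -0.27 and 0.22 in all 18 libraries, and the macrophage medians of Csn8AKO lie at 0.74 and above.

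Upstream of the members, RNA of the interferons was at the edge of detection. Of 21 ligand genes 1 passed the filter on low counts, *Ifnk*, the interferon kappa gene, at 3 to 28 reads per library in sWAT and 4 to 24 in BAT, and it was called in neither. *Ifnb1* had 0 reads in all 18 libraries. *Ifng*, the type II interferon, had at most 2 reads in any library, and none of the other ligand genes had more than 4, so a difference in ligand RNA was not detectable at this depth.

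Of 10 genes of the receptors and the JAK-STAT pathway, 9 were tested in sWAT with 1 called higher (11.1%, beside 5.31% of all genes) and 10 in BAT with 2 called lower (20% called, beside 31.9%). *Ifngr2*, the signalling chain of the interferon gamma receptor, rose by 0.50 ± 0.12 on the log2 scale in sWAT (33.5 ± 3.44 to 47.5 ± 2.68 CPM, SD, n = 4; edgeR adjusted p = 0.0369). *Ifnar2*, the binding chain of the type I receptor, fell by 0.37 on the log2 scale in BAT (44.7 ± 2.85 to 34.7 ± 1.93 CPM, SD, n = 5; edgeR adjusted p = 0.00148). *Ifnar1* was the other gene called lower in BAT. Of 5 negative regulators, 0 were called in sWAT by edgeR, with 0 at an unadjusted p under 0.05, and *Socs3* rose in BAT.

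Of 16 genes of nucleic acid sensing and the control of interferon production, 15 were tested in each tissue. In BAT 6 rose and 1 fell (46.7% called, beside 31.9% of all genes), and in sWAT 1 rose and 1 fell (13.3%, beside 5.31%). *Tlr7*, an endosomal receptor for RNA, rose from 1.33 ± 0.32 to 4.26 ± 0.43 CPM in BAT (SD, n = 5), a log2 fold change of 1.69 (SE 0.18, edgeR adjusted p = 1.48e-05). *Irf5*, a factor that acts below Toll-like receptors, rose in both tissues, by 0.86 ± 0.16 in sWAT (adjusted p = 0.0143) and 1.39 ± 0.16 in BAT (adjusted p = 2.14e-05). *Irf8*, a factor of myeloid cells, and *Ikbke*, a kinase that phosphorylates interferon regulatory factors, rose in BAT by 1.27 ± 0.15 and 1.43 ± 0.21. *Mavs*, the adaptor on which the RNA sensors converge, fell in sWAT by 0.61 on the log2 scale (adjusted p = 0.0486) and in BAT by 0.22 (adjusted p = 0.0470).

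Of 73 further interferon-inducible genes, 72 were tested in sWAT, with 1 higher and 3 lower, and 70 in BAT, with 13 higher and 5 lower. The shares called were 5.56% in sWAT, beside 5.31% of all genes, and 25.7% in BAT, below the 31.9% of all genes. The medians were 0.16 and 0.05. The chemokine *Cxcl10*, which draws T cells through CXCR3, fell in sWAT from 15.3 ± 3.29 to 5.10 ± 0.95 CPM (SD, n = 4), a log2 fold change of -1.58 (SE 0.21, edgeR adjusted p = 0.00396), and in BAT from 6.13 ± 0.76 to 2.95 ± 0.63 CPM (SD, n = 5), a log2 fold change of -1.04 (SE 0.17, edgeR adjusted p = 0.000297). *Cxcl11*, a ligand of the same receptor, fell in sWAT (-1.66 ± 0.32) and in BAT (-1.05 ± 0.22). *Cxcl9*, the third ligand, rose in sWAT from 13.4 ± 2.36 to 34.2 ± 14.5 CPM (SD, n = 4), a log2 fold change of 1.35 (SE 0.28, edgeR adjusted p = 0.0273). The 3 chemokine genes neighbour each other on chromosome 5, where *Art3* runs on the opposite strand, with an exon that overlaps *Cxcl10* and an intron that holds *Cxcl11*, and without a stated strand setting reads of the overlap cannot be assigned to either gene with certainty.

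*Ifi27l2a*, a relative of *Ifi27*, fell in sWAT from 565 ± 127 to 162 ± 73.2 CPM (SD, n = 4), a log2 fold change of -1.80 (SE 0.33, edgeR adjusted p = 0.0145). *Cd274*, which encodes PD-L1, fell in BAT by 0.67 on the log2 scale (adjusted p = 0.00269). The 13 further genes that rose in BAT had log2 fold changes of 0.34 to 1.23. Among them, named after their values were seen, were *Ifi207* (0.99 ± 0.16, adjusted p = 0.000391) and *Ifi205* (1.23 ± 0.21, adjusted p = 0.000485), both of the HIN-200 family, and *Ciita*, the master regulator of MHC class II genes (0.94 ± 0.16, adjusted p = 0.000503). The summed adipocyte markers of sWAT moved with these sWAT values, as given above, and their part in them was not tested.

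**Figure D5:**
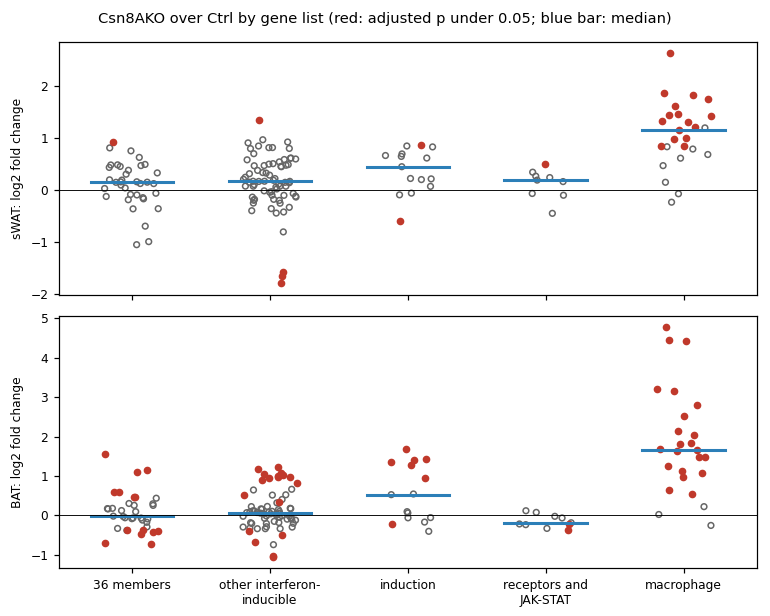
Log2 fold change of Csn8AKO over Ctrl for each tested gene of 5 lists in sWAT (top) and BAT (bottom), on separate vertical scales; red points have an adjusted p under 0.05 and the blue bar is the median of the list. The medians of the 36 members and of the other interferon-inducible genes lie between -0.02 and 0.16, those of the macrophage genes at 1.16 and 1.66.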

How the data were processed

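RNA sequencing of 18 libraries, 1 mouse each, was analysed. The authors depleted ribosomal RNA, aligned paired reads of 150 bases to the genome of Ensembl release 101 with STAR 2.7.9a and counted unique, unambiguous reads per gene with featureCounts. The deposited counts, one table per library, are raw. The deposited CPM, FPKM and TPM columns were derived from the counts by the authors and were not used beyond a check of CPM against the counts.

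Genotypes were compared within each tissue with edgeR 4.0.16 in R 4.3.3 (TMM factors, filterByExpr with a minimum count of 10 and total of 15, robust quasi-likelihood fits, Benjamini-Hochberg adjustment over all genes tested, threshold 0.05). The interaction used all 18 libraries. The procedure was tested on simulated data. Alternatives were DESeq2 1.42.0, voom in limma 3.58.1, other scalings, filters, gene sets and covariates, a replicate block and leaving out libraries. The members, lists and tests were chosen with earlier results of these data known. Leaving out the libraries that stand apart was added after the data were seen.

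Values per library are given for called members, at most the 6 of smallest adjusted p per direction and tissue, and for *Isg15*, *Irf7*, *Irf1* and *Stat2*. Of other lists at most 4 genes per direction and tissue are named, besides *Adgre1*, *Cd68* and *Csf1r*, and *Ifnar1* and *Socs3*, which complete a count. Outside this rule, *Ifi207*, *Ifi205* and *Ciita* were named after their values were seen. *Mavs*, named for sWAT, is also given in BAT. Promoter windows were taken from RefSeq (GRCm38.p6) by symbol and gene positions from the deposited tables. Transcripts of GENCODE M21 were cut into stretches of 75 bases to find sequence shared between genes. No 2 libraries of a tissue differed by as little as sampling noise.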

Additional observations from a re-analysis of the deposited data

Results flagged for a closer look

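Of 84 groups of values, 76 of single genes (19 genes in 4 groups of libraries) and 8 of the summed levels of the members and the macrophage genes, 5 held 1 library far from the rest of its group by Dixon's criterion, where chance gives about 1 in 20. *Mx1* was at 0.864 CPM in Ctrl replicate 2 of BAT and at 0.240 to 0.362 in the other Ctrl libraries. *Isg15* was at 3.57 CPM in the same library and at 1.95 to 2.40 in the others. *Ifi27* was at 612 CPM in Csn8AKO replicate 2 of BAT, against 297 to 365, and *Igtp* was at 4.53 CPM in that library, against 7.43 to 8.02. That library also stood apart over all genes. The median squared deviation of its counts from the other Csn8AKO BAT libraries was 11.4 to 16.5. Those libraries were 2.62 to 5.26 from each other. *Bst2* was at 32.1 CPM in Ctrl replicate 1 of sWAT, a library high in lymph node markers, against 23.8 to 24.6. Without Ctrl replicate 2 the log2 fold change of *Mx1* in BAT was 2.01, and without Csn8AKO replicate 2 that of *Ifi27* was -0.94.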

How the results depend on the processing

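In sWAT the count of called members, 1 with the main settings, was 0 with library size alone, 2 with a stricter filter on low levels (above 1 CPM in every library of a group except 1), 2 with protein-coding genes only, 2 without ribosomal RNA genes, 3 without the libraries high in lymph node markers, 4 with DESeq2, 5 with voom, 5 with all 4 groups in one fit, 6 with the B and T cell marker level as covariate and 0 without the libraries with over 30% ribosomal RNA. It was 0 to 3 when 1 library was left out. In BAT the count of 14 was 9 with library size alone, 5 with the B and T cell covariate, which overlaps only in part between genotypes, and 10 to 15 when 1 library was left out. The interaction called 1 member in place of 0 with library size alone, DESeq2, voom, the B and T cell covariate and without the libraries rich in ribosomal RNA (*Ifit3b* each time), and 0 to 1 when 1 library was left out. The medians ranged from 0.06 to 0.20 in sWAT and from -0.06 to 0.06 in BAT when 1 library was left out.

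The macrophage covariate does not overlap between genotypes, so its fits say little: it called 0 members in each tissue and 1 in the interaction (*Iigp1*), gave medians of -0.48 in sWAT and -1.02 in BAT, and turned *Oas1a* to -0.82 in BAT and -0.21 in sWAT, *Mx1* to -0.37, *Oas2* to -0.051, *Ifi47* to -0.15 and *Ifi27* to 0.81 in BAT, and *Isg15* to -2.86 and *Stat2* to -0.22 in sWAT.

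Values near 0 changed sign elsewhere, none of them called: in BAT *Isg15* (0.13 with library size alone, 0.038 with voom), *Irf7* (0.047 with library size alone) and *Stat2* (0.083 with library size alone), and in sWAT *Irf1* (-0.0033 without a filter, -0.037 with voom, -0.062 with the B and T cell covariate, -0.0025 without the lymph node libraries). When 1 library was left out, *Isg15* ranged from -0.15 to 0.33 in sWAT and from -0.094 to 0.16 in BAT, *Irf1* from -0.16 to 0.18 in sWAT and *Stat2* from -0.12 to 0.037 in BAT. Those with library size alone follow from the scaling, which moved all genes of BAT up together; the cause of the others was not tested.

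Replicate numbers do not pair the mice: same-numbered libraries correlated at -0.39 to 0.22 in sWAT and -0.10 to 0.10 in BAT, and 0 of 4 and 2 of 5 Ctrl libraries correlated best with their own number. With the number as a replicate block, 0 members were called in sWAT, 11 in BAT and 0 in the interaction, and *Isg15* in BAT was at 0.011. The summed macrophage level of Csn8AKO BAT was 3.77 times that of Ctrl, and 4.37 times when levels were taken per kilobase. The ISRE core was in 10 members when only the forward strand was read. At 4 reads or fewer per library, changes in the ligand genes other than *Ifnk* could not be measured.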
